A study of Mus musculus with 24 samples.

Results

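The 8 genes described here handle fructose and glucose in the hepatocyte. They were taken by symbol from the count table of 56205 genes: Khk, Tkfc, Slc2a2, Gckr, Pklr, Pck1, Fbp1 and G6pc. All 8 had enough reads to be tested and stand among the 17913 genes tested. The libraries came from whole liver of C57BL/6J mice of both sexes after 20 weeks on 1 of 2 diets, with 12 libraries each. The high fat diet, named FFD in the labels, held palm oil fat, fructose and cholesterol, and its comparison group ate the control diet. No allele or drug differed between the groups, and the labels name no litter, cage or batch. Whether each library is 1 mouse is not stated in the labels, so p-values measure the spread between libraries.

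Fructose enters the pathway through ketohexokinase (Khk), which makes fructose 1-phosphate. Triokinase (Tkfc) phosphorylates the glyceraldehyde formed from it. GLUT2 (Slc2a2) lets glucose and fructose cross the hepatocyte membrane in either direction. The regulatory protein encoded by Gckr restrains the phosphorylation of glucose, and fructose 1-phosphate relieves that restraint. Liver pyruvate kinase (Pklr) closes glycolysis. Phosphoenolpyruvate carboxykinase (Pck1), fructose bisphosphatase (Fbp1) and the glucose 6-phosphatase catalytic subunit (G6pc) drive the reverse route, which releases glucose during fasting. Insulin lowers transcription of Pck1 and G6pc and glucagon raises it, whereas sugar raises Pklr through the carbohydrate response factor ChREBP (Mlxipl).

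The promoters that carry these known inputs are shown first, since the diet comparison is about genes that sugar and hormones control. For 3 genes the 250 bases before the RefSeq start in GRCm38.p6 are printed 5' to 3' in the direction of transcription, with each motif searched in capitals. The Pck1 stretch is chr2:173152823-173153072, the G6pc stretch chr11:101367466-101367715 and the Pklr stretch chr3:89136373-89136622, all on the plus strand. Pklr has a second, upstream RefSeq start, and the inner one is shown.
Pck1: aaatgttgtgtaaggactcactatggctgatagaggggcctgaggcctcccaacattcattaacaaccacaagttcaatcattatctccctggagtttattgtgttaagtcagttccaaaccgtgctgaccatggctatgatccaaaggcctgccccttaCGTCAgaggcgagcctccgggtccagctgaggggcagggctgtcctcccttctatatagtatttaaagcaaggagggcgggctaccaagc
G6pc: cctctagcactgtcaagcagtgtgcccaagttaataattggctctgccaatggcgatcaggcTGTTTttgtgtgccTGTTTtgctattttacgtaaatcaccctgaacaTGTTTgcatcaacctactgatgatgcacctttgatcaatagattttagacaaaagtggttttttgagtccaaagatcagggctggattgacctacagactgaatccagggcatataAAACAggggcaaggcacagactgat
Pklr: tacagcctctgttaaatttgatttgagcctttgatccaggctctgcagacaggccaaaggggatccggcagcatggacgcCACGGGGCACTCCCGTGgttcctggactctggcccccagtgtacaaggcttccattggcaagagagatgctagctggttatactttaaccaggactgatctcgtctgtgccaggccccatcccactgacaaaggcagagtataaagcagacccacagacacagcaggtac

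In the Pck1 promoter the capitals are CGTCA, the reverse complement of TGACG, the core of the cAMP response element, and they begin 90 bases before the start. The same letters on either strand stood in 17.8% of the 32851 mouse promoters of that length. In the G6pc promoter the capitals are 4 copies of the forkhead core TGTTT or its reverse complement AAACA, at -188, -174, -141 and -25. FOXO1, which insulin drives out of the nucleus, binds elements that hold this core. It was present in 46.4% of promoters, so its presence alone marks nothing about G6pc, and Khk, Gckr and Tkfc also held at least 1 copy. In the inner Pklr promoter the capitals are the carbohydrate response element that ChREBP binds, a pair of E-box-like sites written CACGNG and CNCGNG with any 5 bases between them, at -170. That form occurred in 0.28% of promoters and in no other promoter of the 8 genes. The perfect E-box CACGTG stood in the Khk promoter at -71, where it shares 2 bases with a TGACG core at -74, and in 6.02% of promoters. The full palindrome TGACGTCA was found in none of the 9 promoters of the 8 genes and in 1.55% of all promoters. Both strands were searched, and a match describes letters, not a bound site.

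Library facts that touch the values are as follows. Total counts ranged from 14468418 to 22112552. Replicates 1 to 6 of either diet held 2664 to 6285 counts of Xist, the RNA of the inactive X chromosome, and replicates 7 to 12 held 0 to 3. Ddx3y, a gene of the Y chromosome, had 0 counts in replicates 1 to 6 and 448 to 1016 in replicates 7 to 12. Together these counts have the pattern of female livers in the first set and male livers in the second. The labels give no sex, and these 2 sets of 6 libraries a diet are named below by their replicate numbers. Control replicate 10 was the shallowest library and had the lowest TMM factor, 0.679, and FFD replicate 9 had the highest, 1.34. Of 12 hepatocyte markers, Alb and Apoa1 among them, 8 were called lower on FFD and 0 higher, and none was at 0 in every library. Their summed level ran from 65680 to 163100 CPM on FFD and from 112700 to 172500 CPM on control. With library totals in place of TMM scaling 1 marker was called lower and 1 higher. A gene was called where edgeR's quasi-likelihood test gave an adjusted p up to 0.01 and the log2 fold change was over 0.5 in size. CPM means counts scaled to library size after TMM.

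On FFD the gluconeogenic genes Pck1 and G6pc were lower by more than 1 unit on the log2 scale, and Gckr was lower by a smaller amount. These 3 of the 8 genes were called lower and 0 were called higher. Across all tested genes 4.99% were called lower and 13.2% higher. All 8 estimates lay below 0, with a median log2 fold change of -0.54 against -0.03 over all tested genes. The 12 hepatocyte markers had a median of -0.63. In whole-liver RNA, fewer hepatocytes and less of an mRNA per hepatocyte cannot be told apart. The part of the hepatocyte share in these estimates was not tested. Macrophage markers (6 of 10 called higher, 0 lower), stellate cell markers (7 of 10) and cholangiocyte markers (5 of 6) moved the other way. The sinusoidal endothelial list had 1 of 8 called higher and the T cell list 0 of 6.

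**Figure D1:**
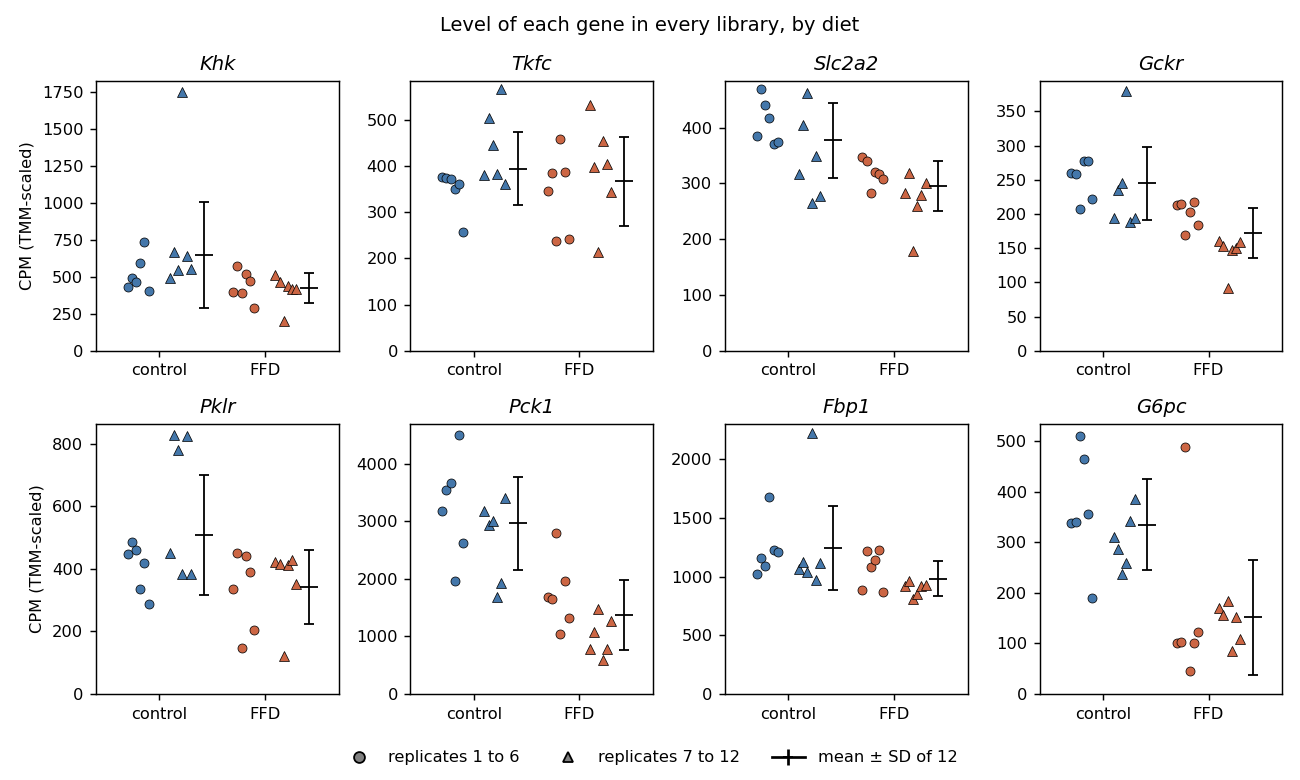
Level of each of the 8 genes in CPM (TMM-scaled, vertical axis) in the 12 control and 12 FFD libraries. Circles are replicates 1 to 6, triangles replicates 7 to 12, and the bar is the mean ± SD of 12. All but 1 of the FFD points of G6pc lie below the lowest control point at 189 CPM. For Khk the control point at 1749 CPM stands far above the rest, and for Fbp1 the control points at 2229 and 1680 CPM stand above the rest.

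Pck1 (ENSMUSG00000027513), the first committed enzyme of gluconeogenesis, lies on chromosome 2 at 173153048 to 173159273 (GRCm38, GENCODE M21) with 10 exons. Control libraries ran from 1689 to 4492 CPM with a median of 3088, and FFD libraries from 592.5 to 2804 CPM with a median of 1289. The groups overlapped, but 10 of 12 FFD libraries were below the lowest control library and 12 of 12 were below the control median. The means were 2966 ± 812 CPM on control and 1368 ± 610 CPM on FFD (SD, n = 12 each). The log2 fold change was -1.12 (SE 0.21, adjusted p = 0.000165, edgeR), a 2.17-fold lower level. Scaling by library totals gave -0.86 (adjusted p = 0.00113, edgeR).

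G6pc (ENSMUSG00000078650), whose product performs the last step of glucose release, lies on chromosome 11 at 101367561 to 101377903 with 5 exons. It ran from 189 to 510.5 CPM on control, with a median of 339.3, and from 45.9 to 489.6 CPM on FFD, with a median of 115.4. FFD replicate 3 held the 489.6 CPM, and the next FFD library stood at 184.6. The remaining 11 FFD libraries were below every control library. Means were 335 ± 90.6 CPM on control and 152 ± 113 CPM on FFD (SD, n = 12 each), with a log2 fold change of -1.15 (SE 0.26, adjusted p = 0.00113, edgeR). Without FFD replicate 3 the estimate was -1.47 (adjusted p = 2.7e-06, edgeR). FFD replicate 3 also had the highest Pck1 level of the FFD group.

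Fbp1 (ENSMUSG00000069805) sits between these steps, on chromosome 13 at 62864753 to 62888282, minus strand. The control range was 968.2 to 2229 CPM with a median of 1121, and the FFD range 805.3 to 1226 CPM with a median of 925.5. In FFD, 8 of 12 libraries were below the lowest control, although the spread of the control group was wide. The 2229 CPM came from control replicate 10. The log2 fold change of -0.34 (SE 0.12, adjusted p = 0.0299, edgeR) did not pass. Without control replicate 10 it was -0.23, and with library totals -0.03, so the size of this difference rested on that library and on the scaling.

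Gckr (ENSMUSG00000059434), the gene of that regulatory protein, lies on chromosome 5 at 31297443 to 31327314, 366195 bases beyond Khk. It measured 188.7 to 380.1 CPM on control (median 240.1) and 91.8 to 218.1 CPM on FFD (median 165.1). All 12 FFD libraries were below the control median and 8 were below the lowest control library. The log2 fold change was -0.51 (SE 0.13, adjusted p = 0.00233, edgeR), just past the fold threshold. The call ended when any of 8 single libraries was left out, with -0.44 without control replicate 10, the highest control library, and -0.45 without FFD replicate 9, the lowest FFD library. Library totals gave -0.23 (adjusted p = 0.0657, edgeR).

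Slc2a2 (ENSMUSG00000027690), the gene of the GLUT2 transporter, lies on chromosome 3 at 28697903 to 28731359. Its relative spread was the least on control, with 264.2 to 469.2 CPM on control (median 379.7) and 179.2 to 348.3 CPM on FFD (median 304.6). Of the control libraries 9 were above the highest FFD library, and 12 of 12 FFD libraries were below the control median. The log2 fold change of -0.36 (SE 0.11, adjusted p = 0.00892, edgeR) passed the p threshold and not the fold threshold. It was -0.09 with library totals.

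Khk and Tkfc, the 2 kinases of the fructose route, differed in how they stood between diets. Khk (ENSMUSG00000029162), on chromosome 5 at 30921431 to 30931248, ran from 404.9 to 1749 CPM on control (median 549.8) and from 202.6 to 574 CPM on FFD (median 427.1). Control replicate 10 held the 1749 CPM, and the next control library stood at 734.4. That library held 17180 Khk counts, the most of any library, at the lowest depth of all. The log2 fold change was -0.61 (SE 0.20, adjusted p = 0.0184, edgeR), which did not pass, and -0.37 without control replicate 10 (adjusted p = 0.0328, edgeR). With library totals it was -0.27 (adjusted p = 0.184, edgeR). Tkfc (ENSMUSG00000034371), on chromosome 19 at 10587791 to 10605654, minus strand, had overlapping groups of 256.2 to 566.2 CPM on control and 214.1 to 530.9 CPM on FFD. Its log2 fold change was -0.10 (SE 0.14, adjusted p = 0.582, edgeR; 95% interval -0.37 to 0.17) and 0.19 with library totals, so no direction is given for it.

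Pklr (ENSMUSG00000041237), the last enzyme of glycolysis and the gene with the ChREBP element shown above, lies on chromosome 3 at 89136142 to 89146784. Control libraries ran from 287.1 to 826.5 CPM (median 448.9) and FFD libraries from 122.1 to 449.2 CPM (median 400.6). In 6 control libraries the level was above the highest FFD library, while 3 FFD libraries were below the lowest control. The log2 fold change of -0.56 (SE 0.22, adjusted p = 0.0394, edgeR) did not pass, and with library totals it was -0.29 (adjusted p = 0.308, edgeR). Mlxipl, the gene of ChREBP itself, was at 240 ± 56.3 CPM on FFD and 284 ± 45.7 CPM on control (SD, n = 12 each; log2 fold change -0.24, adjusted p = 0.109, edgeR; 0.03 with library totals).

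With an adjusted p of at most 0.05 and no fold threshold, 7 of the 8 genes passed as lower, all but Tkfc, where 18.9% of all tested genes did. With library totals only Pck1 and G6pc, 2 of the 8, passed as lower at that threshold, against 4.16% of all tested genes. The choice of scaling moved every estimate. Library totals in place of TMM shifted the median of all genes from -0.03 to 0.26, and that of the 8 genes from -0.54 to -0.25. All genes called went from 2372 higher and 894 lower to 3827 higher and 226 lower. The median of the 8 genes lay below that of all genes under both scalings, and Pck1 and G6pc were called lower under both. The median of the 12 hepatocyte markers was lower still, at -0.63 with TMM and -0.35 with library totals.

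**Figure D2:**
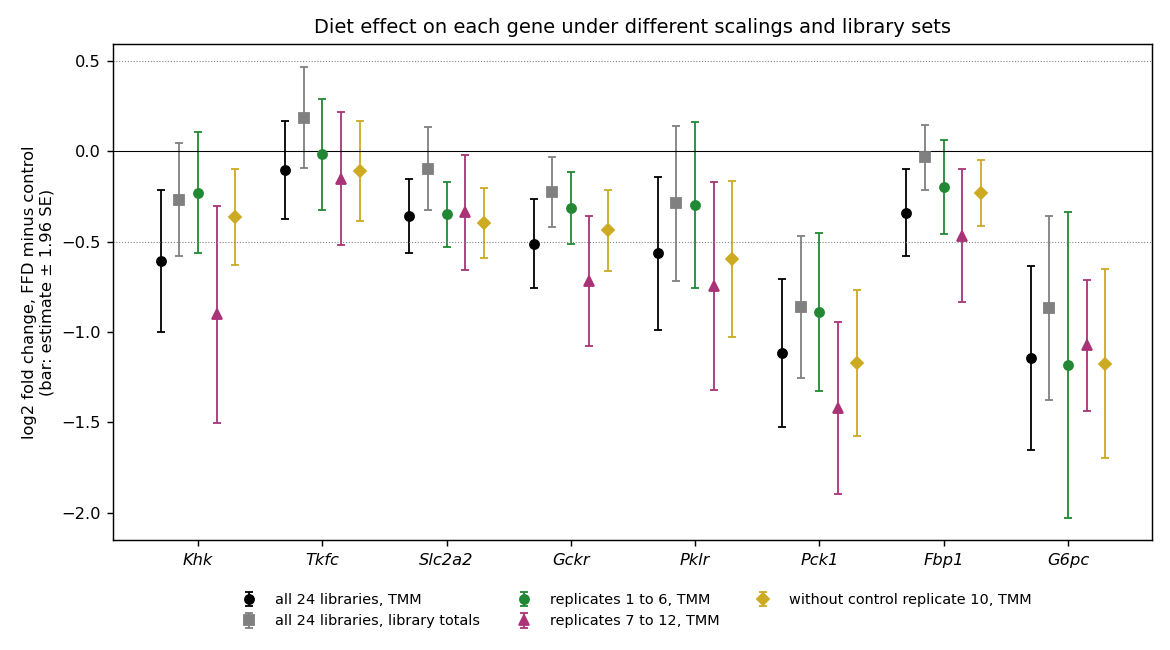
Log2 fold change of FFD minus control (vertical axis, estimate with its 95% interval) for each gene under TMM, library totals, each set of replicates and without control replicate 10. The dotted lines mark the fold threshold of 0.5. Pck1 and G6pc stay below -0.86 under all 5 fits, and Tkfc lies on both sides of 0.

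The diet estimates were compared between replicates 1 to 6 and replicates 7 to 12. Pck1 was -0.89 in the first set (adjusted p = 0.0164, edgeR) and -1.42 in the second (adjusted p = 0.000423, edgeR). G6pc was -1.18 (adjusted p = 0.0813) and -1.07 (adjusted p = 0.000441) in the same edgeR fits. Gckr was -0.31 (adjusted p = 0.0532) and -0.72 (adjusted p = 0.00663), again from edgeR. Within the first set 0 of the 8 genes were called and within the second 3 were, all lower. Of all tested genes, 0.896% were called lower in the first set and 7.89% in the second. The difference between sets was itself tested by an interaction term and passed for none of the 8 genes, with adjusted p from 0.239 for Gckr to 0.998 for Slc2a2 (edgeR). Unadjusted, 0 of the 8 had a p under 0.05, the lowest being 0.0631. Of all 17913 tested genes, 4288 had an unadjusted p under 0.05 in that test (edgeR), and 728 passed at an adjusted p of at most 0.01. For Pck1 the second set's estimate minus the first's was -0.54 (95% interval -1.21 to 0.14), an interval that holds 0.

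A ratio of 2 genes of the same library does not depend on how libraries are scaled. It can still depend on the mix of cell types in whole liver, and that part was not tested. The log2 ratios were compared between diets with two-sided permutation tests of 100000 resamples, adjusted over 5 ratios, of which 3 are given here. Fbp1 was set against Pfkl, the liver phosphofructokinase that runs the opposite reaction. The ratio averaged 4.83 ± 0.43 on control and 4.13 ± 0.48 on FFD (SD, n = 12 each), a difference of -0.71 (permutation p = 0.0005, adjusted 0.00125). In FFD 7 of 12 libraries lay below every control library and 11 of 12 below the control median. The difference was -0.67 in replicates 1 to 6 (exact permutation p = 0.0216) and -0.74 in replicates 7 to 12 (exact permutation p = 0.00433).

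The Khk to Tkfc ratio differed by -0.40 (permutation p = 0.0106, adjusted 0.0132), with 10 of 12 FFD libraries below the control median. The difference was -0.19 in replicates 1 to 6 (exact permutation p = 0.234) and -0.62 in replicates 7 to 12 (exact permutation p = 0.00866). The ratio in control replicate 10 was 2.20, the highest, and without it the difference was -0.26. Pklr against Pck1 differed by 0.59 (permutation p = 0.126, adjusted 0.126). It did not pass, and FFD libraries spanned -4.26 to -0.53 against -3.43 to -1.22 on control. Without FFD replicate 3, at -4.26, the difference was 0.80 (permutation p = 0.0262).

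**Figure D3:**
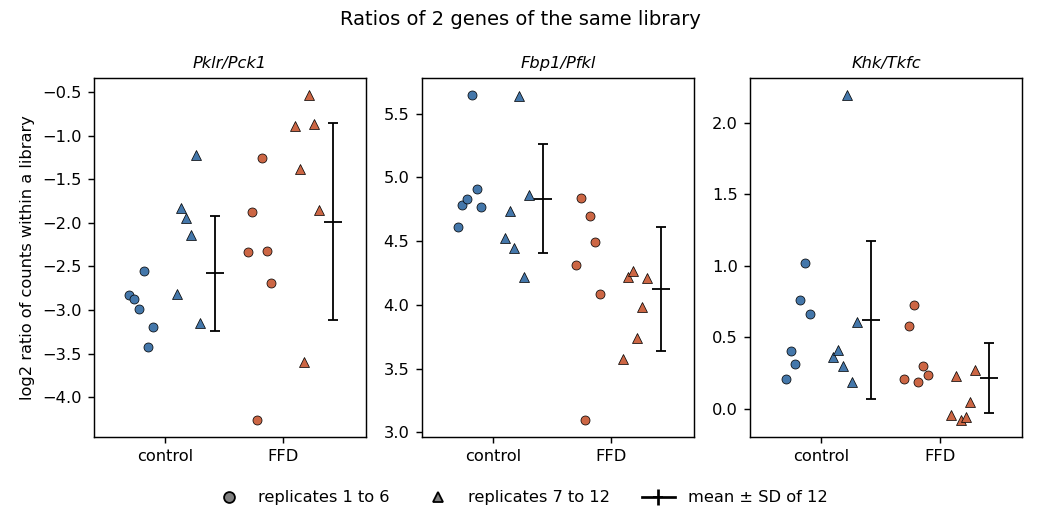
Log2 ratio of the counts of 2 genes in the same library (vertical axes, own scale each) for 12 control and 12 FFD libraries. Circles are replicates 1 to 6, triangles replicates 7 to 12, bars the mean ± SD of 12. For Fbp1/Pfkl, 7 of 12 FFD points lie below every control point.

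Levels between genes were set side by side as CPM per kilobase of the longest principal transcript (GENCODE M21). On control the order was Pck1 (1114 ± 305), Fbp1 (842 ± 243), Khk (409 ± 228), Pklr (175 ± 66.0), Tkfc (157 ± 31.4), G6pc (139 ± 37.5), Gckr (122 ± 26.4) and Slc2a2 (67.8 ± 12.01; SD, n = 12). Pck1 was above Fbp1 in 10 of 12 control libraries. Pklr was above Tkfc in 8 of 12 and Tkfc above G6pc in 8 of 12, so these neighbours overlapped. On FFD the order began with Fbp1 (665 ± 99.2) and then Pck1 (514 ± 229), with Fbp1 above Pck1 in 9 of 12 libraries. G6pc was above Gckr in 9 of 12 control libraries, and on FFD Gckr (85.4 ± 18.3) was above G6pc (62.8 ± 47.0) in 10 of 12. On FFD G6pc was above Slc2a2 (52.9 ± 8.01) in 5 of 12. The relative spread (SD over mean) on FFD was greatest for G6pc at 74.9% and least for Fbp1 at 14.9%. On control it was greatest for Khk at 55.7% and least for Slc2a2 at 17.7%.

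The wider pathway was read from lists that hold the 8 genes and their neighbours. Of 22 gluconeogenesis genes 5 were called lower and 2 higher, with a median log2 fold change of -0.25. The shares over all tested genes were 4.99% lower and 13.2% higher. Besides Pck1 and G6pc the lower ones were Got1, the cytosolic aspartate aminotransferase (225 ± 105 CPM on FFD, 592 ± 317 on control; -1.39), the pyruvate carrier subunit Mpc2 (-0.67) and the glucose 6-phosphate transporter Slc37a4 (-0.57). Without control replicate 10 the lower count was 3, where 5.13% of all tested genes were called lower. With library totals it was also 3, where 1.26% of all tested genes were. The higher ones were low in level: Pck2, the mitochondrial form of the enzyme (13.5 ± 4.59 CPM on FFD, 8.33 ± 1.98 on control; 0.70), and G6pc3, the widely expressed phosphatase (0.50).

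Lower glycolysis had 0 of 12 genes called in either direction under TMM, with a median of -0.05. With library totals 21.4% of all tested genes were called higher, and their median over all genes was 0.26. In this list 3 were then called higher, with a median of 0.23. Pfkl stood at 0.46 (adjusted p = 0.0116, edgeR) and was 1 of these 3 (0.74). In the fructose and sorbitol list of 8 genes, Slc2a5, the fructose transporter GLUT5, was called lower (-0.75; 9.47 ± 3.45 CPM on FFD against 16.0 ± 5.44 on control), a call that ended with library totals (-0.47, adjusted p = 0.0515, edgeR). Akr1b3, the aldose reductase that starts the sorbitol route, was called higher (0.51), and 0 genes of the list were with the replicate set as a covariate. Gckr was the 1 of 5 glucose entry genes called.

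Of 15 glycogen genes 3 were called lower, against 4.99% of all tested genes. The 3 were Gys2, the liver glycogen synthase (-0.58), and the phosphatase subunits Ppp1r3b (-0.77) and Ppp1r3c (-0.73). Pgm2 (0.78) and the glycogenin gene Gyg (0.77) were called higher, both below 11 CPM on average. With library totals 0 were called lower and 2 higher, against 1.26% and 21.4% of all tested genes. The pentose phosphate list had 0 of 8 called under TMM and 4 higher with library totals, where 21.4% of all tested genes were called higher. Among 24 genes of transcriptional and hormonal control, 3 were called lower and 0 higher, against 4.99% and 13.2% of all tested genes. The 3 were Onecut1, a hepatocyte homeobox factor (-1.41), Ppargc1a, the coactivator of gluconeogenic genes (-0.80), and Klf15, a fasting-responsive factor (-0.64). With library totals these 3 calls ended and 1 other gene was called higher.

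**Figure D4:**
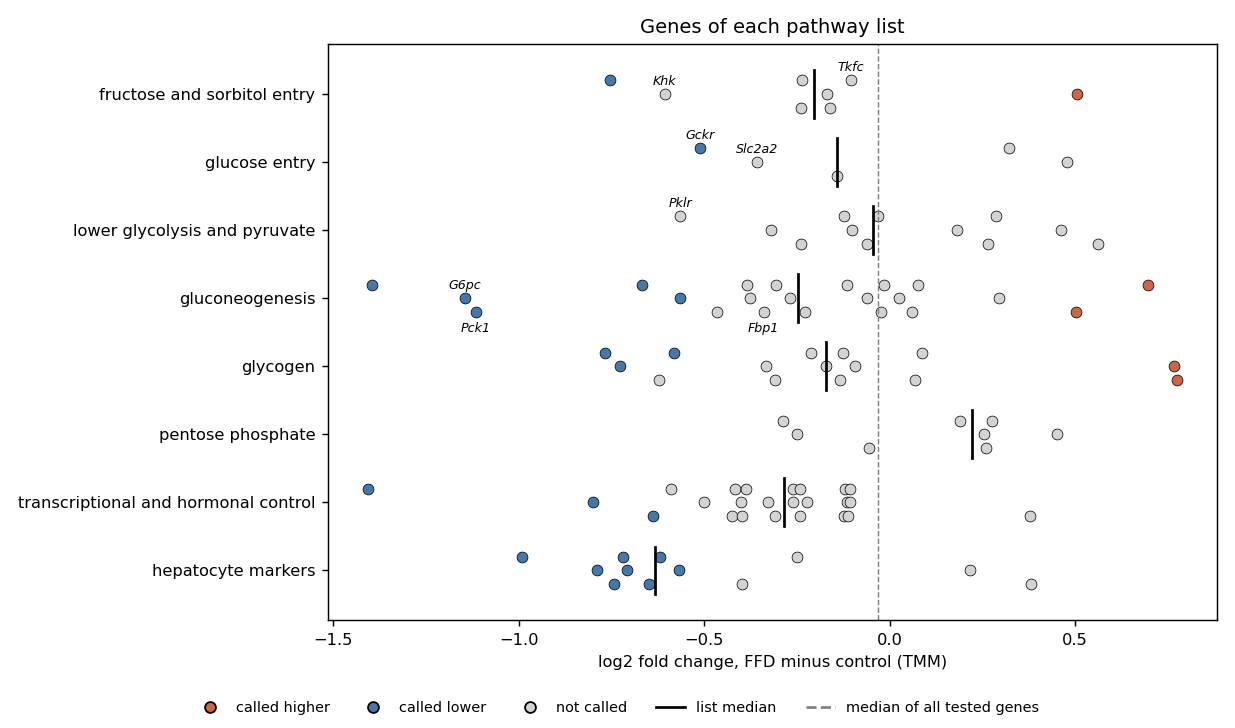
Log2 fold change of FFD minus control under TMM (horizontal axis) for every gene of 7 pathway lists and the hepatocyte markers, with the called genes coloured and the 8 genes named. Black bars are list medians and the dashed line is the median of all tested genes, -0.03. The gluconeogenesis list spreads from -1.39 to 0.70 and the hepatocyte markers centre at -0.63.

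How the 8 genes varied together from library to library was measured after the mean of each diet and replicate set was removed, on log2(CPM + 1) over 24 libraries. The 28 pairs gave 56 p-values (r and rho, permutation within groups, 100000 resamples), adjusted together. In 5 pairs r and rho had an adjusted p of at most 0.05, and all 5 were positive. Tkfc and Pklr were the closest (r = 0.92, rho = 0.85, permutation p = 1e-05 for each, the smallest these permutations can give, adjusted 0.00028). Within the 4 groups of 6 libraries their r ran from 0.87 to 0.95.

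Slc2a2 also went with Pklr (r = 0.78, rho = 0.70, permutation p = 0.00016 and 0.00046, adjusted 0.00299 and 0.00384). Khk went with Gckr, which lies 366195 bases away on chromosome 5 (r = 0.87, rho = 0.75, permutation p = 0.00044 and 0.00048, adjusted 0.00384 for each). Khk also went with Fbp1 (r = 0.79, rho = 0.77, permutation p = 0.00085 and 0.00023, adjusted 0.00595 and 0.00322), and Gckr with Fbp1 (r = 0.69, rho = 0.64, permutation p = 0.00325 and 0.0022, adjusted 0.0182 and 0.0137). With the 2 libraries farthest from the median of the first gene left out, r was 0.86 for Tkfc and Pklr, 0.68 for Slc2a2 and Pklr, 0.67 for Khk and Gckr, 0.66 for Khk and Fbp1, and 0.48 for Gckr and Fbp1. Without control replicate 10 alone the last pair had an r of 0.46. Khk then had an r of 0.74 with Tkfc, 0.67 with Pklr and 0.44 with Slc2a2, against 0.49, 0.36 and 0.09 with that library included. Gckr had 0.63, 0.68 and 0.66 with the same genes, against 0.43, 0.40 and 0.28. Fbp1 stayed low with them, at 0.185, 0.11 and 0.07. The separation of Khk and Gckr from Tkfc, Pklr and Slc2a2 thus rested on control replicate 10.

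Pck1 and G6pc, the pair called lower by more than 1 unit, correlated less (r = 0.51, rho = 0.29, permutation p = 0.0197 and 0.195, adjusted 0.085 and 0.32), and did not pass. None of their pairs with the other 6 genes passed, and the sign of several turned between the groups of 6 libraries: Tkfc and G6pc had an r of -0.81 in FFD replicates 1 to 6 and 0.82 in control replicates 1 to 6. Values of 1 library share its depth and scaling factor.

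**Figure D5:**
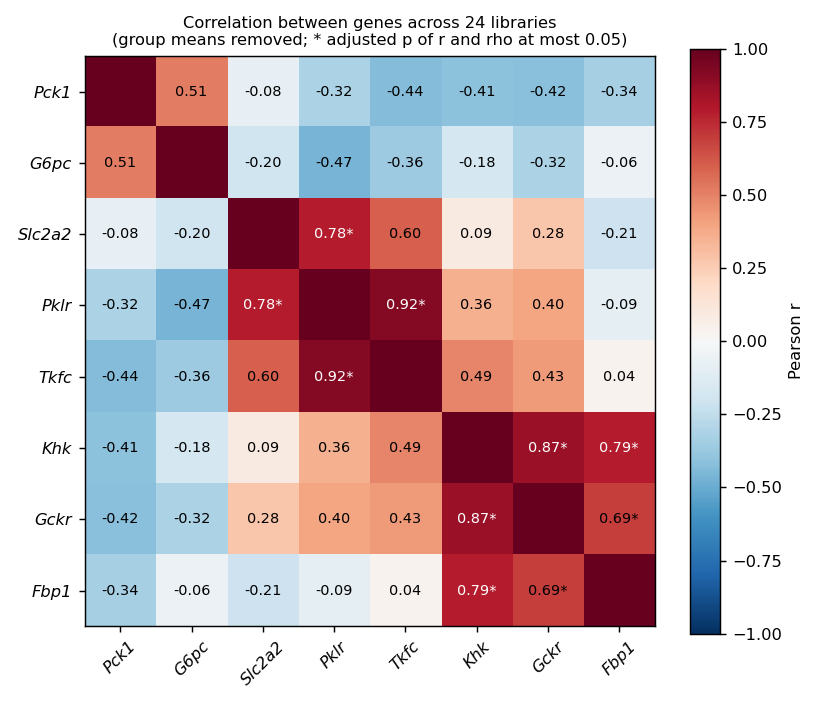
Pearson r between the 8 genes over 24 libraries after removal of the mean of each diet and replicate set (colour scale from -1 to 1). Stars mark the 5 pairs with adjusted p of r and rho at most 0.05, which join Slc2a2, Pklr and Tkfc, and Khk, Gckr and Fbp1. Control replicate 10 is included here, and without it Khk and Gckr had an r of 0.63 to 0.74 with Tkfc and Pklr.

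Among 13916 other genes with a mean of at least 10 counts, the 3 with the highest r to each member over the same 24 libraries were sought, as a description, and up to 3 are given. Among them Pck1 had Gfra1 (r = 0.79) and Slc25a22 (0.78), both called lower on FFD. G6pc was followed by Il4ra (0.80), Dmtn and Elane (0.79 each), the last of them a neutrophil elastase. Dmtn and Elane were called higher on FFD (log2 fold change 1.62 and 4.18), opposite to G6pc. Khk went with the mitochondrial and cytosolic enzymes Pdhb (0.88) and Mdh1 (0.88) and with Pfkfb1 (0.88). Tkfc went with Pklr (0.92) and the glycogen phosphorylase Pygl (0.85). Slc2a2 had Dpp4 (0.93), Tmem106b (0.92) and Tnpo1 (0.89), and Gckr had Slc27a5 (0.89), Gle1 (0.87) and Gamt (0.87). Fbp1 had Ndufa5 (0.93), Ccl27a (0.92) and Tmem14c (0.92). Every r of this search includes control replicate 10, which had the highest Khk, Gckr and Fbp1 of all libraries. None was computed without that library, so how far these r values rest on it was not tested. Without it the log2 fold change of Pfkfb1 went from -0.32 to -0.15 and that of Mdh1 from -0.31 to -0.22.

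Pklr had Tkfc (0.92), Hcn3 (0.91) and Gbe1 (0.90). Hcn3 lies on the opposite strand and overlaps the end of Pklr by 711 bases, with a mean of 28.1 CPM. Tkfc shares 328 bases with Ddb1 and 8171 with Cyb561a3, and Slc2a2 shares 28693 bases with an antisense gene, each on the opposite strand. The use of strand in counting is not given in the sources used here, so reads in these overlaps cannot be told apart.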

How the data were processed

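Liver RNA-seq of 24 libraries was analysed, 12 per diet, grouped by the labels. The table the authors deposited holds raw counts for Ensembl gene IDs, with no normalization. The labels name bcl2fastq, STAR 2.7.3a and mm10, and the supplement describes STAR with the exon quantification pipeline and PISCES against the human genome. It does not say whether the mouse libraries were counted that way, so their counting tool, annotation and use of strand are not given in the sources used here. Symbols came from GENCODE M21 (51745 of 56205 IDs matched), as did coordinates and transcript lengths, and promoters from RefSeq (GRCm38.p6).

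Counts were fitted with edgeR 4.0.16 in R 4.3.3 (TMM, quasi-likelihood test, diet as the only term, genes counted at least 1 time in 12 or more libraries, Benjamini-Hochberg adjustment over 17913 genes). The SE is the absolute log2 fold change over the square root of F, and 95% intervals are normal intervals from it. The thresholds are those of the study's methods. The fit was tested on simulated data. Ratios used log2 counts with 0.5 added and were compared with SciPy 1.17.1. Depth was 14468418 to 22112552 counts per library, and every member had at least 921 counts in each library, so counting error is small beside the spread between libraries.

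The members and all lists were chosen with earlier results of these data known. The genes named were the 8 members, in each pathway list at most the 4 called genes with the largest change, Pfkl and Mlxipl whatever their values, and the 3 genes most like each member. Mpc2, Slc37a4, G6pc3 and Gys2 fall outside this rule and were named after their values were seen. Some results that this rule covers are not reported here. Alternatives were library totals, DESeq2 size factors, DESeq2 1.42.0, limma-voom (limma 3.58.1), 3 filters, 2 thresholds, a replicate block, the replicate set as a covariate or alone, and each library left out. List counts under other settings and r without control replicate 10 were added after seeing the data. Other models of the study were not analysed here.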

Additional observations from a re-analysis of the deposited data

How the results depend on the processing

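Pck1 and G6pc were called lower under each alternative scaling, test, filter and left-out library, and within replicates 7 to 12 (-1.42 and -1.07). Within replicates 1 to 6 alone they were not called (-0.89 and -1.18, 0 of the 8 genes called). Both sets held 6 libraries a diet, and why they differed was not tested. Gckr lost its call with library totals (-0.23), without a filter (-0.50), with at least 10 counts in every library (-0.46), within replicates 1 to 6 (-0.31), at a log2 threshold of 1 (-0.51) and without any of 8 single libraries, its range being -0.55 to -0.44. Tkfc reversed to 0.19 with library totals, where neither value passed. With an adjusted p of at most 0.05 and no fold threshold, Khk (-0.61), Slc2a2 (-0.36), Pklr (-0.56) and Fbp1 (-0.34) also passed, which made 7, but with library totals none of these 4 did and 2 of the 8 genes passed. The Khk to Tkfc ratio was -0.19 within replicates 1 to 6. The Pklr to Pck1 ratio ranged from 0.46 to 0.80 with single libraries left out and passed 0.05 only without FFD replicate 3. Between 2 and 3 of the 8 genes were called lower with 1 library left out, where 4.21% to 5.61% of all tested genes were. With diet means alone removed 4 pairs passed in place of 5: Slc2a2 with Pklr (r = 0.47) and Khk with Gckr (0.67) no longer did, and Khk with Tkfc (0.52) did. Replicate numbers are shared between diets, and same-numbered libraries were not taken as pairs in the main fit. With diet means removed they deviated together with r from -0.10 to 0.58. That r holds the shared replicate set and was not compared with differently numbered libraries, so it cannot decide whether they are pairs. With a replicate block, Pck1 was -1.19, G6pc -1.32 and Gckr -0.51. In that fit 3 of the 8 genes were called lower, against 4.71% of all tested genes. In all, 276 of 296 estimates of the 8 genes and 133 of 135 ratios under alternatives kept their direction and side of the threshold. Over all genes, calls were 3827 higher and 226 lower with library totals, 525 and 162 within replicates 1 to 6, and 2596 and 1430 within replicates 7 to 12, against 2372 and 894 overall. Within replicates 1 to 6, 0 genes of the gluconeogenesis list and 0 of the transcriptional and hormonal list were called lower, and within replicates 7 to 12 these were 5 and 9. Of all tested genes 0.896% were called lower within the first set and 7.89% within the second. Depth did not limit the 8 genes.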

Other observations

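FFD replicate 3 departed from its group for several of the 8 genes in both directions. It had the highest Pck1 (2804 CPM) and G6pc (489.6 CPM) of the 12 FFD libraries, while Pklr (145.9 CPM) and Tkfc (237.9 CPM) were each the second lowest. FFD replicate 9 had the lowest Khk (202.6 CPM), Tkfc (214.1 CPM), Slc2a2 (179.2 CPM), Gckr (91.8 CPM), Pklr (122.1 CPM) and Fbp1 (805.3 CPM) of the 24 libraries, while its G6pc, at 184.6 CPM, was the second highest on FFD. Control replicate 10 had the highest Khk (1749 CPM), Gckr (380.1 CPM) and Fbp1 (2229 CPM) of all libraries and the lowest Pck1 (1689 CPM) and Slc2a2 (264.2 CPM) on control. These ranks are of TMM-scaled levels, and the TMM factor was highest in FFD replicate 9 (1.34) and lowest in control replicate 10 (0.679). Some ranks depend on that scaling. FFD replicate 9 held 19049 Fbp1 counts at a depth of 17649254, and FFD replicate 1 held 16725 at a depth of 18239168.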
